A study of Mus musculus with 12 samples.

Results

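The 10 genes described here are those of T cells and regulatory T cells in gonadal white adipose tissue (GWAT) of mice that lack HOIP in adipocytes. They encode parts of the T cell receptor complex (Cd3e, Cd3g), its coreceptors (Cd4, Cd8a), the checkpoint receptors Pdcd1 and Ctla4, and proteins found on or in regulatory T cells (Foxp3, Il2ra, Il1rl1, Gata3). They were taken by gene symbol from the 55281 annotated genes for which read counts were estimated, and all 10 were among the 18427 genes with enough counts to be tested.

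GWAT was taken from male mice 22 to 24 weeks old, and RNA pooled from 3 mice was sequenced per library, in 4 groups of 3 libraries. All mice carried floxed Hoip (Rnf31) alleles, fl/fl, which encode the catalytic subunit of the linear ubiquitin chain assembly complex. HoipA-KO mice also carried AdipoQ.Cre, a Cre recombinase under the adiponectin promoter that is active in mature adipocytes, while WT mice were Cre negative. From 6 weeks of age and for 16 weeks, the groups WT CD and HoipA-KO CD received a control diet (CD, 14% fat per the labels), and the groups WT HFD and HoipA-KO HFD a high-fat diet (HFD, 60% fat). T cells were therefore not the target of the deletion, and each value is a mean over the mixed cells of the fat tissue sampled from pooled animals.

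T cells recognise antigen through the receptor that CD3 chains hold at the cell surface, and the coreceptors CD4 and CD8 divide them into helper and cytotoxic lineages. Regulatory T cells, defined by the transcription factor FOXP3, carry the high-affinity interleukin-2 receptor chain (Il2ra) and CTLA-4, and restrain other immune cells. Visceral fat of lean mice is known for a resident regulatory T cell population that carries ST2, the receptor for interleukin-33 encoded by Il1rl1, and GATA3. ST2 and GATA3 are not unique to these cells: mast cells and type 2 innate lymphoid cells also carry ST2, and GATA3 is also made by several epithelia, and some macrophages and dendritic cells carry CD4.

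Libraries held between 30513446 and 60540225 counts, and 3 counts, taken as the floor of a library, equalled 0.0533 to 0.0996 CPM. CPM are counts scaled to a common library size, here after TMM normalization over the 12 libraries. Transcripts of the targeted gene Rnf31 lay at 12.8 to 21.2 CPM in WT and 17.7 to 22.5 CPM in HoipA-KO libraries, with a log2 fold change on CD of -0.08 ± 0.14 (SE, adjusted p = 0.654 by the quasi-likelihood F test of edgeR), so this count over the whole gene and all cells of the tissue did not check the labels. Of 8 adipocyte genes, 7 were called lower in HoipA-KO on CD and 8 on HFD (6 and 5 over all 12 libraries), against 18.8% and 7.62% of all tested genes with 11 libraries. A trio of libraries stood apart. WT CD replicate 3 held 1640 CPM of 6 testis germ cell genes (at most 5.36 CPM elsewhere), and it was left out of the tests, as in the comparisons the authors deposited, with the calls of the 10 genes between genotypes over all 12 libraries given beside them. WT CD replicate 2 and HoipA-KO HFD replicate 1 held 15200 and 1400 CPM of 10 genes of the epididymal epithelium, which lies against this fat pad, with at most 100.0 CPM in the other 10 libraries. These 2 libraries are called epididymal-rich below.

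Il1rl1 is shown first because it had the largest rise of the 10 genes in HoipA-KO on CD. The gene lies on the plus strand (chr1:40429570-40465415, GRCm38) and RefSeq gives it a pair of start sites, so that its transcripts can begin at either of 2 places. The upstream promoter is known to be used mainly by mast cells and other hematopoietic cells and the downstream promoter by fibroblasts. A count per gene does not tell transcripts from the 2 start sites apart. The 250 bases before each start (RefSeq, GRCm38.p6, plus strand, 5′ to 3′) are printed with every match to the GATA factor words AGATAA and AGATAG and the words TGATAA and TGATAG, on either strand, in capitals.
Il1rl1 upstream start, chr1:40429320-40429569: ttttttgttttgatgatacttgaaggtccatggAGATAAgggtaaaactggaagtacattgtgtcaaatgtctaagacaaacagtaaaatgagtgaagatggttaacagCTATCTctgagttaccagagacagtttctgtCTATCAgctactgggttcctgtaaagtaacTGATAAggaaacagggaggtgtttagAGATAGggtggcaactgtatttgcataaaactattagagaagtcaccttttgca
Il1rl1 downstream start, chr1:40439379-40439628: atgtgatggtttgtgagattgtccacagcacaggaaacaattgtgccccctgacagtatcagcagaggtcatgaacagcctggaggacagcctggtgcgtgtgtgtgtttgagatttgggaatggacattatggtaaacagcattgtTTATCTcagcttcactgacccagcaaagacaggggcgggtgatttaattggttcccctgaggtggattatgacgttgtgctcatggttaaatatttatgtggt
The upstream window held 5 of these words and the downstream window 1, and no words overlapped. Of 32851 windows of the same length before RefSeq starts, 26.5% held at least 1 of the words and 14 windows (0.0426%) at least 5. RefSeq windows were given for 9 of the 10 genes, with 11 windows in all, of which 5 held a word; the others with a word were Foxp3 with both of its windows and Cd3g. These matches are a description of letters and not of bound sites.

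The comparison of HoipA-KO with WT on CD asked whether loss of HOIP in adipocytes goes with a change of T cell transcripts on the control diet. Il1rl1 and Cd4 were higher in HoipA-KO, by 7.25-fold and 4.83-fold, and no change was called for the other 8 genes. With 2 of 10 genes called, both higher, these genes stand against a background of 37.7% of all tested genes called in either direction and 18.9% called higher (quasi-likelihood F test of edgeR, Benjamini-Hochberg adjusted p under 0.05), so the count of higher calls is close to the share among all tested genes and that of calls in either direction is below it. Over all 12 libraries the same 2 genes were called, against 34.7% in either direction and 15.6% higher. With 11 libraries, 9 of the 10 genes had a positive log2 fold change, with a median of 0.78 against -0.06 over all tested genes. In the 9 libraries that were not epididymal-rich, with WT CD replicate 1 alone, 6 of the 10 had. In the 10 of the 12 libraries that were not epididymal-rich 6 of the 10 had, and Cd4 and Il1rl1 were called. The fold changes of the 10 genes with their intervals are plotted for both diets.

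**Figure D1:**
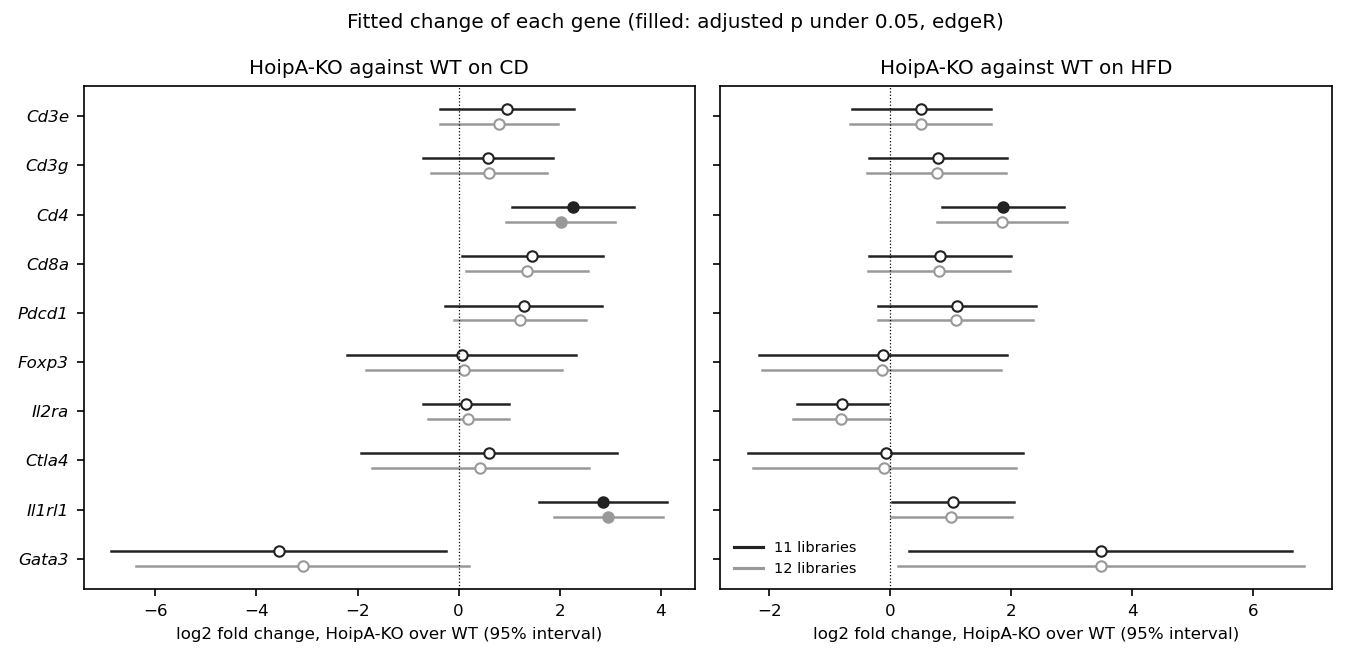
Log2 fold change of each gene in HoipA-KO over WT (x axis) on CD (left) and HFD (right), with its 95% interval from edgeR's quasi-likelihood fit; black is the fit of 11 libraries, grey that of 12, and filled points have an adjusted p under 0.05. On CD Cd4 and Il1rl1 are filled in both fits, on HFD only Cd4 in the fit of 11 libraries, and the intervals of Foxp3, Ctla4 and Gata3 are the widest.

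Il1rl1 stood at 5.04, 3.26 and 2.89 CPM in the 3 WT CD libraries (in the order of replicates 1, 2 and 3, as in all lists of values) and at 36.1, 32.2 and 19.1 CPM in HoipA-KO CD. Every HoipA-KO library was above every WT library. In the fit of 11 libraries it rose by 2.86 ± 0.57 on the log2 scale (SE, 95% interval 1.59 to 4.13, n = 3 and 2 libraries, adjusted p = 0.00434, edgeR). Over all 12 libraries the rise was 2.96 ± 0.49 (SE, adjusted p = 0.00167, edgeR). Without the epididymal-rich libraries it was 2.53 in 9 libraries, with WT CD replicate 1 alone. In 10 of the 12 it was 2.88 ± 0.53 (SE, adjusted p = 0.00649, edgeR).

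Cd4 (chr6:124864692-124888221, minus strand) had 1.49, 1.37 and 2.13 CPM in WT CD and 9.64, 2.93 and 7.68 CPM in HoipA-KO CD. The groups did not overlap, and HoipA-KO CD replicate 2 lay closest to WT. Cd4 rose by 2.27 ± 0.54 on the log2 scale (SE, 95% interval 1.06 to 3.48, adjusted p = 0.00991, edgeR's quasi-likelihood test), and by 2.02 ± 0.49 over all 12 libraries (SE, adjusted p = 0.0117, edgeR). Without the epididymal-rich libraries the rise was 2.18 in 9 libraries, with WT CD replicate 1 alone. In 10 of the 12 libraries the call held (1.90 ± 0.60, SE, adjusted p = 0.0392, edgeR). RefSeq promoter windows were not given for Cd4.

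The T cell receptor genes Cd3e and Cd3g did not follow Cd4 in every library. Both lie on the minus strand of chromosome 9 (chr9:44998740-45009627 and chr9:44969572-44980431), with Cd3d between them. Cd3e had 0.731, 1.26 and 1.28 CPM in WT CD and 2.59, 0.693 and 2.42 CPM in HoipA-KO CD, and the groups overlapped. Cd3g had 1.73, 1.76 and 1.56 CPM in WT CD and 3.47, 0.942 and 3.26 CPM in HoipA-KO CD. HoipA-KO CD replicate 2 was below each WT library in both genes, while the other 2 HoipA-KO libraries were above them. The log2 fold changes were 0.96 ± 0.59 for Cd3e (SE, 95% interval -0.368 to 2.29, adjusted p = 0.225, edgeR) and 0.58 ± 0.58 for Cd3g (SE, 95% interval -0.712 to 1.87, adjusted p = 0.452, edgeR). Neither change passed the threshold.

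Cd8a, the coreceptor chain of cytotoxic T cells, which is also carried by some dendritic cells, had 0.268, 0.76 and 0.594 CPM in WT CD and 1.34, 0.605 and 2.23 CPM in HoipA-KO CD. HoipA-KO CD replicate 2 again fell among the WT libraries. Its log2 fold change was 1.46 ± 0.62 (SE, adjusted p = 0.0906, edgeR). Pdcd1, which encodes the checkpoint receptor PD-1, had 0.195, 0.347 and 0.297 CPM in WT CD and 0.842, 0.178 and 0.942 CPM in HoipA-KO CD, with the lowest of these 6 values again in HoipA-KO CD replicate 2. Its log2 fold change of 1.28 ± 0.69 (SE, adjusted p = 0.167, edgeR) did not pass the threshold. In this replicate the 9 macrophage genes summed to 12100 CPM, the highest of the 12 libraries, and the 19 T cell receptor complex and signaling genes other than Il7r to 25.7 CPM, the lowest. Without this library Cd8a (1.81 on the log2 scale, adjusted p = 0.0476, edgeR) and Pdcd1 (1.73, adjusted p = 0.0403, edgeR) were called higher. Without WT CD replicate 2, which leaves replicate 1 alone in WT CD, the log2 fold change of Cd8a was 2.40.

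**Figure D2:**
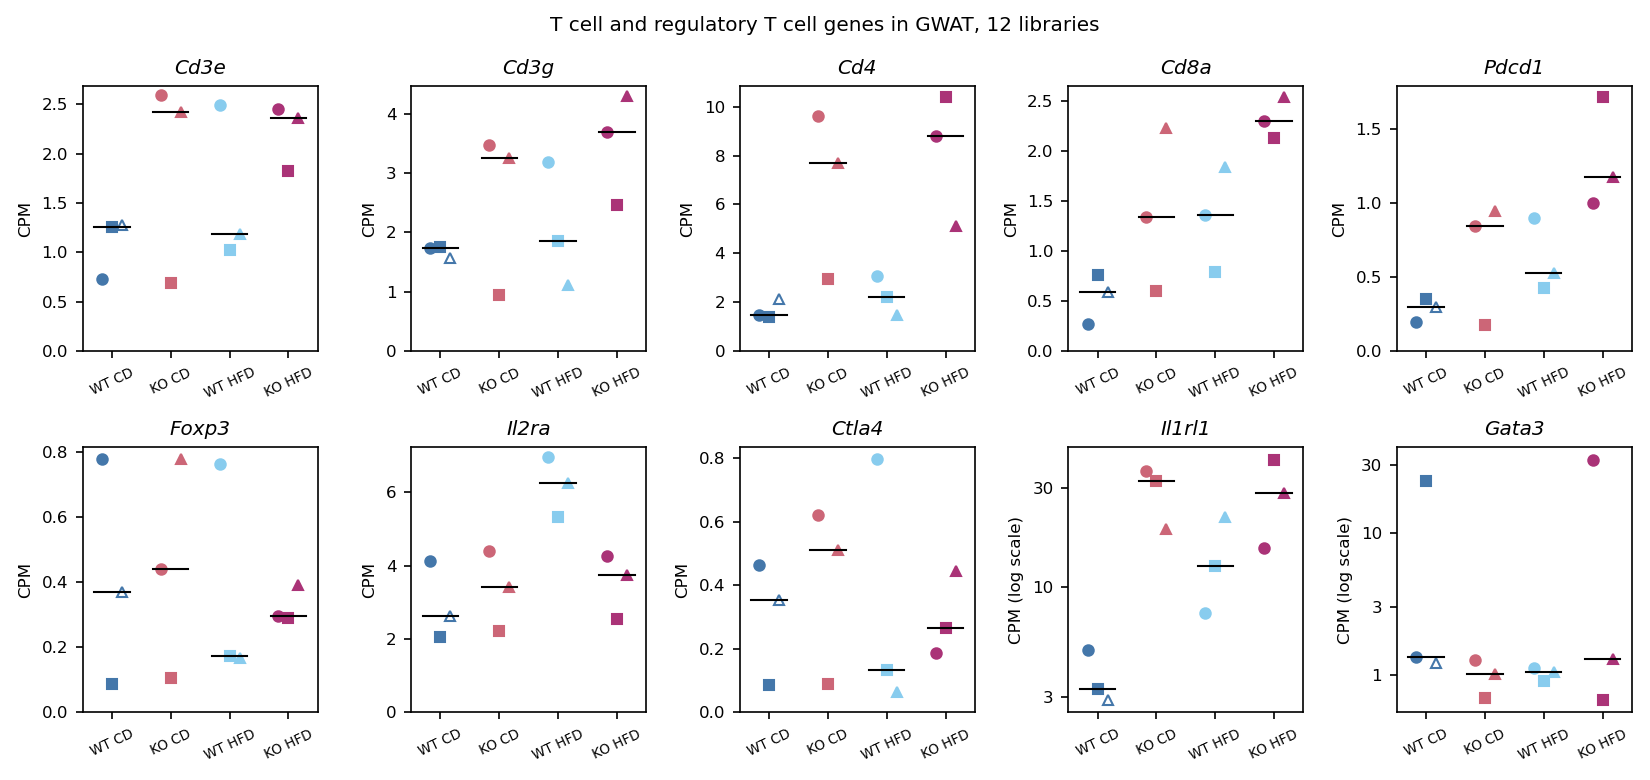
CPM (TMM over 12 libraries) of the 10 genes in each library of WT CD, HoipA-KO CD (KO CD), WT HFD and HoipA-KO HFD (KO HFD); circles, squares and triangles are replicates 1, 2 and 3, the open triangle is WT CD replicate 3, and lines are medians. The axes of Il1rl1 and Gata3 are logarithmic. Cd4 of both HoipA-KO groups lies above the WT group on the same diet, and Gata3 is near 1 CPM in all but 2 libraries.

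No change was called for the genes that define regulatory T cells, and Foxp3 and Ctla4 had few counts. Foxp3 (chrX:7573644-7595245, plus strand) had 0.78, 0.0869 and 0.371 CPM in WT CD, from 32, 4 and 20 counts, and 0.441, 0.107 and 0.778 CPM in HoipA-KO CD, from 22, 6 and 38 counts. The lowest and the highest library of the groups were alike. The log2 fold change was 0.06 ± 1.01 (SE, 95% interval -2.2 to 2.32, adjusted p = 0.97, edgeR). With these few and widely spread libraries, changes between 0.218-fold and 4.99-fold could not be told apart. Ctla4 had 0.463, 0.0869 and 0.353 CPM in WT CD and 0.621, 0.0889 and 0.512 CPM in HoipA-KO CD, with a log2 fold change of 0.60 ± 1.13 (SE, adjusted p = 0.703, edgeR). Il2ra was measured more firmly, with 4.12, 2.06 and 2.64 CPM in WT CD and 4.41, 2.22 and 3.42 CPM in HoipA-KO CD. The groups overlapped, and its log2 fold change of 0.15 ± 0.38 (SE, 95% interval -0.696 to 1, adjusted p = 0.774, edgeR) spanned 0.617-fold to 2-fold. Without WT CD replicate 2, the lowest of the 3 in each of these genes, replicate 1 is alone in WT CD. The log2 fold changes were then -0.79 for Foxp3, -0.16 for Ctla4 and -0.26 for Il2ra. That of Foxp3 was -0.68 without HoipA-KO CD replicate 3. Foxp3 overlaps Flicr on its own strand (1 to 40 counts) and Ppp1r3f, Gm36995 and Ccdc22 on the other, and Ctla4 overlaps Rpl18-ps1 (1 to 10 counts), so their counts are uncertain where reads could be split.

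Gata3, a transcription factor of type 2 and regulatory T cells, had 1.34, 23.0 and 1.21 CPM in WT CD and 1.28, 0.693 and 1.02 CPM in HoipA-KO CD. The value of 23.0 CPM came from WT CD replicate 2, the library with 12600 CPM of Crisp1, a secreted protein of the epididymis. The log2 fold change was -3.56 ± 1.48 (SE, adjusted p = 0.083, edgeR). Without the epididymal-rich libraries it was -0.42 in 9 libraries, with WT CD replicate 1 alone. In 10 of the 12 libraries it was -0.35 ± 0.42 (SE, adjusted p = 0.545, edgeR). Without WT CD replicate 1, which leaves replicate 2 alone in WT CD, it was -4.48. Gata3 was called lower without HoipA-KO HFD replicate 1 (-3.71, adjusted p = 0.0133, edgeR), a fit in which WT CD replicate 2 remained. With 11 libraries, Cd4 and Il1rl1 were higher and Gata3 lower without overlap between the groups (27.0% of tested genes were higher and 27.4% lower in this way), and with 12 libraries Cd4 and Il1rl1 were (19.9% of tested genes higher).

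The same comparison on HFD asked whether the genotypes also differ under high-fat feeding, and here Cd4 alone was called. Cd4 had 3.06, 2.21 and 1.49 CPM in WT HFD and 8.82, 10.4 and 5.1 CPM in HoipA-KO HFD. Every HoipA-KO library was above every WT library, by 3.65-fold in the fit. On the log2 scale the rise was 1.87 ± 0.45 (SE, 95% interval 0.85 to 2.88, adjusted p = 0.033, edgeR's quasi-likelihood test). It was 1.85 ± 0.48 over all 12 libraries, where the call was lost (SE, adjusted p = 0.0667, edgeR), and 1.83 ± 0.52 in 9 libraries without the epididymal-rich ones (SE, adjusted p = 0.0419, edgeR). The call was also lost when any 1 of the 6 HFD libraries was left out, with log2 fold changes of 1.63 to 2.15 over all libraries left out in turn. This is 1 of 10 genes called, higher, against 11.8% of all tested genes in either direction and 4.20% higher. Over 12 libraries 0 of 10 were called against 2.78%. There, 4 of the 10 had an unadjusted p under 0.05 (edgeR), against 3931 of all 18074 tested genes.

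Il1rl1 had 7.57, 12.6 and 21.7 CPM in WT HFD and 15.5, 40.8 and 28.1 CPM in HoipA-KO HFD. WT HFD replicate 3 was above HoipA-KO HFD replicate 1, so the groups overlapped. The log2 fold change was 1.03 ± 0.45 (SE, 95% interval 0.024 to 2.05, adjusted p = 0.15, edgeR). Il2ra differed the other way, with 6.97, 5.31 and 6.26 CPM in WT HFD and 4.27, 2.55 and 3.75 CPM in HoipA-KO HFD. Every HoipA-KO library was below every WT library, and the log2 fold change of -0.80 ± 0.34 (SE, 95% interval -1.55 to -0.0379, adjusted p = 0.142, edgeR) did not pass the threshold.

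Cd8a had 1.36, 0.788 and 1.84 CPM in WT HFD and 2.3, 2.13 and 2.54 CPM in HoipA-KO HFD, and Pdcd1 had 0.897, 0.423 and 0.524 CPM against 1.0, 1.71 and 1.17 CPM. In both genes all HoipA-KO libraries were above all WT libraries. The log2 fold changes of 0.82 ± 0.53 for Cd8a (SE, adjusted p = 0.309, edgeR) and 1.10 ± 0.58 for Pdcd1 (SE, adjusted p = 0.223, edgeR) did not pass the threshold. Without overlap 3 of the 10 genes were higher (Cd4, Cd8a, Pdcd1), against 20.6% of tested genes, and 1 was lower (Il2ra), against 23.7%.

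Cd3e had 2.49, 1.02 and 1.19 CPM in WT HFD and 2.45, 1.82 and 2.36 CPM in HoipA-KO HFD, and Cd3g had 3.19, 1.85 and 1.11 CPM against 3.7, 2.46 and 4.3 CPM. WT HFD replicate 1 reached the HoipA-KO libraries in both genes, and the log2 fold changes were 0.52 ± 0.51 for Cd3e (SE, adjusted p = 0.513, edgeR) and 0.79 ± 0.51 for Cd3g (SE, adjusted p = 0.314, edgeR). Foxp3 had 0.764, 0.173 and 0.168 CPM in WT HFD and 0.297, 0.289 and 0.391 CPM in HoipA-KO HFD. Ctla4 had 0.797, 0.135 and 0.0628 CPM in WT HFD, the last at the floor of 3 counts, and 0.186, 0.266 and 0.445 CPM in HoipA-KO HFD. For both genes WT HFD replicate 1 was the highest and the other WT libraries the lowest of the 6, with log2 fold changes of -0.12 ± 0.92 for Foxp3 (SE, 95% interval -2.18 to 1.94, adjusted p = 0.941, edgeR) and -0.07 ± 1.02 for Ctla4 (SE, 95% interval -2.35 to 2.2, adjusted p = 0.968, edgeR). Without WT HFD replicate 1 these were 0.94 and 1.59. Gata3 had 1.13, 0.904 and 1.05 CPM in WT HFD and 32.7, 0.666 and 1.3 CPM in HoipA-KO HFD, with the value of 32.7 CPM in replicate 1, which held 1310 CPM of Crisp1. Its log2 fold change of 3.48 ± 1.41 (SE, adjusted p = 0.127, edgeR) was -0.03 ± 0.40 without the epididymal-rich libraries (SE, 9 libraries, adjusted p = 0.969, edgeR). Gata3 also overlaps 4930412O13Rik on the other strand (0 to 626 counts) and 9230102O04Rik on its own strand (0 to 119 counts).

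The diet comparisons asked what HFD does within a genotype. In WT mice none of the 10 genes was called with 11 libraries by edgeR's quasi-likelihood test, against 14.8% of all tested genes. By this test 3 of the 10 had an unadjusted p under 0.05, against 5907 of the 18427 tested genes. DESeq2's Wald test called 1 of the 10. Il1rl1 had a log2 fold change of 1.76 ± 0.54 (SE, 95% interval 0.556 to 2.97, adjusted p = 0.0551, edgeR), and all 3 WT HFD libraries, at 7.57 to 21.7 CPM, were above the WT CD libraries, at 2.89 to 5.04 CPM. Over all 12 libraries it was 1.90 ± 0.47 (SE, adjusted p = 0.0268, edgeR) and the only one of the 10 genes called, against 15.0% of tested genes. Il2ra was 5.31 to 6.97 CPM in WT HFD and 2.06 to 4.12 CPM in WT CD, with a log2 fold change of 1.01 ± 0.39 (SE, adjusted p = 0.106, edgeR). With 11 libraries, Il1rl1 was called when WT HFD replicate 1 (2.06, adjusted p = 0.0368, edgeR) or HoipA-KO HFD replicate 1 (1.69, adjusted p = 0.0455, edgeR) was left out. Without WT CD replicate 1, which leaves replicate 2 alone in WT CD, Il2ra had a log2 fold change of 1.61. In WT, 5 genes were higher on HFD without overlap (Cd4, Cd8a, Il2ra, Il1rl1, Pdcd1), against 23.9% of tested genes, and Gata3 was lower, against 18.7%; with 12 libraries Cd4 overlapped and 4 were higher, against 17.1%.

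In HoipA-KO mice none of the 10 genes was called between the diets, and no gene of the 18427 was, by edgeR's quasi-likelihood test (percent called 0; 415 genes, among them 1 of the 10, Gata3, had an unadjusted p under 0.05, and DESeq2's Wald test called 7 genes and 0 of the 10). Il1rl1 had 19.1 to 36.1 CPM on CD and 15.5 to 40.8 CPM on HFD, with a log2 fold change of -0.06 ± 0.45 (SE, 95% interval -1.06 to 0.94, adjusted p = 1, edgeR). Cd4 differed by 0.26 ± 0.44 on the log2 scale (SE, 95% interval -0.717 to 1.24, adjusted p = 1, edgeR). Pdcd1 was the only one of the 10 genes without overlap, higher on HFD (3.42% of tested genes were), with 0.99 ± 0.58 (SE, adjusted p = 1, edgeR).

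Whether the effect of the genotype differed between the diets was tested as an interaction. None of the 10 genes was called by edgeR's quasi-likelihood test, against 3.91% of tested genes. By this test 2 of the 10 had an unadjusted p under 0.05, against 4228 of the 18427 tested genes. DESeq2's Wald test called 0 of the 10. The interaction of Il1rl1 was -1.82 ± 0.69 on the log2 scale (SE, 95% interval -3.37 to -0.276, adjusted p = 0.158, edgeR), and that of Cd4 was -0.41 ± 0.67 (SE, adjusted p = 0.758, edgeR). The smaller change of Il1rl1 on HFD is thus not shown to differ from that on CD. Gata3 had an interaction of 7.04 ± 2.04 (SE, adjusted p = 0.0881, edgeR). It was 7.98 without WT CD replicate 1 and 0.40 in the 9 libraries that were not epididymal-rich. Each of these fits holds 1 WT CD library. In 10 of the 12 libraries it was 0.29 ± 0.595 (SE, adjusted p = 0.855, edgeR).

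Genes of other cells that can carry ST2 or CD4 also differed between the genotypes. The 9 mast cell genes summed to 25.6 to 48.3 CPM in WT CD, 589 to 706 CPM in HoipA-KO CD, 32.7 to 223 CPM in WT HFD and 332 to 867 CPM in HoipA-KO HFD, and 8 of the 9 were called higher in HoipA-KO on CD and 4 on HFD (7 and 0 over all 12 libraries), against 18.9% and 4.20% of all tested genes with 11 libraries. Their most abundant genes are the mast cell proteases Tpsb2, Cma1 and Mcpt4, and none of them was at 0 in any library. The 9 macrophage genes, led by Lyz2, Cd68 and Csf1r, summed to 419 to 630 CPM in WT CD, 8730 to 12100 CPM in HoipA-KO CD, 1810 to 5350 CPM in WT HFD and 6590 to 10600 CPM in HoipA-KO HFD, and 9 of 9 were called higher in HoipA-KO on CD and 3 on HFD (9 and 0 over all 12 libraries). Il1rl1 had its lowest 3 values in the 3 WT CD libraries, which also had the 3 lowest sums of macrophage genes, and its highest value in HoipA-KO HFD replicate 2, which had the highest sum of mast cell genes. HoipA-KO CD replicate 2 had the highest sum of macrophage genes and the lowest Cd4 of the 6 HoipA-KO libraries. Within WT HFD, sums of macrophage genes of 1810, 3270 and 5350 CPM stood beside 3.06, 2.21 and 1.49 CPM of Cd4, in the opposite order. Within HoipA-KO HFD, sums of 6590, 10600 and 7130 CPM stood beside 8.82, 10.4 and 5.1 CPM of Cd4, both highest in replicate 2. On each diet every HoipA-KO library was above every WT library in both. The part of mast cells and macrophages in the values of Il1rl1 and Cd4 was not tested, and in bulk RNA more cells of a type and more RNA per cell cannot be told apart.

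**Figure D3:**
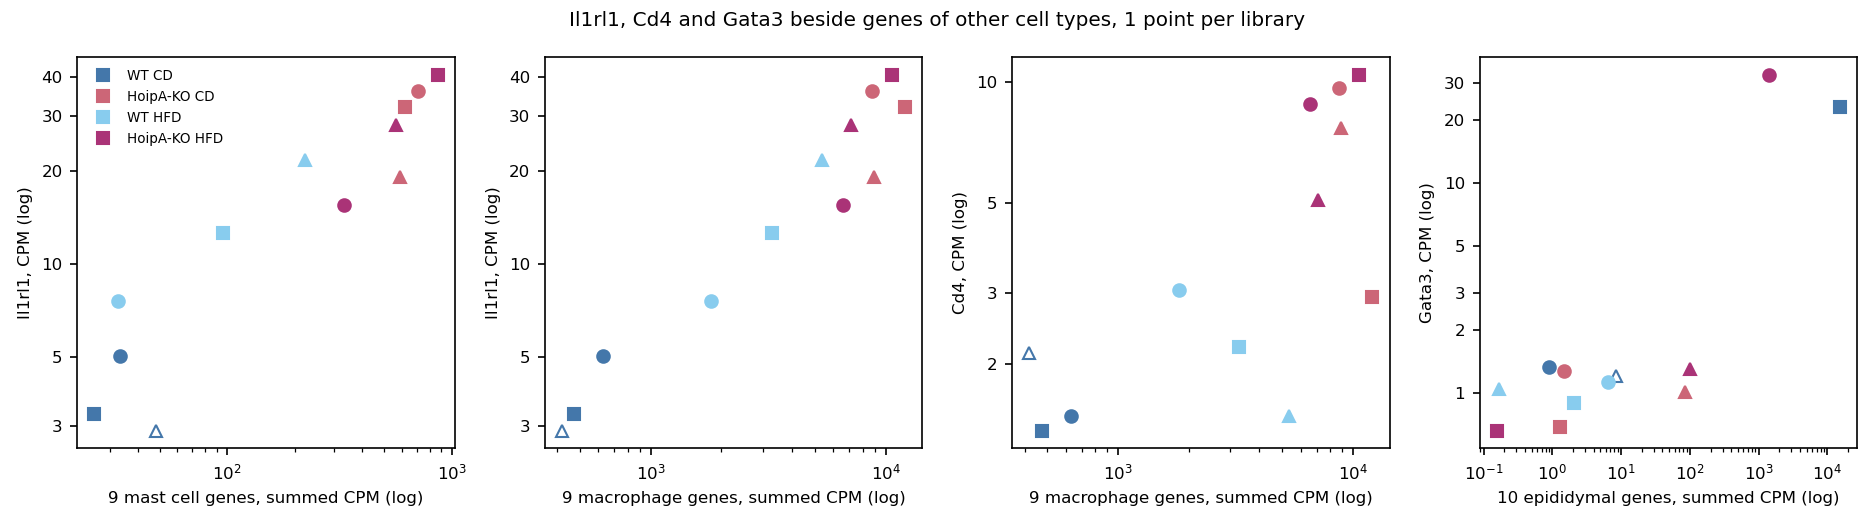
Il1rl1 against the summed CPM of mast cell and macrophage genes, Cd4 against macrophage genes and Gata3 against epididymal genes, all axes logarithmic, 1 point per library; circles, squares and triangles are replicates 1, 2 and 3, and the open triangle is WT CD replicate 3. Il1rl1 is at 2.89 to 5.04 CPM where macrophage genes are at 419 to 630 CPM, and Gata3 is at 23.0 and 32.7 CPM in the libraries with 15200 and 1400 CPM of epididymal genes.

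The 8 dendritic cell genes, led by the class II gene H2-Ab1 and by Zbtb46 and Batf3, summed to 141 to 176 CPM in WT CD, 289 to 465 CPM in HoipA-KO CD, 289 to 582 CPM in WT HFD and 323 to 881 CPM in HoipA-KO HFD. Of these, 4 were called higher in HoipA-KO on CD (3 over all 12 libraries) and 0 on HFD, against 18.9% and 4.20% of all tested genes with 11 libraries. None of 8 B cell genes (Cd79b, Cd79a and Ms4a1 the most abundant) was called in either genotype comparison, with median log2 fold changes of -0.88 on CD and -1.48 on HFD, and none of 6 mesothelial genes (Upk3b, Msln and Krt19 the most abundant) was.

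To set the genes against each other within a library, log2 ratios of (CPM + 0.1) were taken. With 3 against 2 libraries on CD the exact permutation test cannot give a p below 0.2, and with 3 against 3 on HFD none below 0.1, so these values are a description. Foxp3 relative to the sum of Cd3e and Cd3g had log2 ratios of -1.54, -4.06 and -2.64 in WT CD and -3.51, -3.07 and -2.72 in HoipA-KO CD, and the difference over 11 libraries was -0.30 (exact permutation p = 0.8, two-sided, n = 3 and 2). On HFD the log2 ratios were -2.74, -3.44 and -3.17 in WT and -3.98, -3.5 and -3.78 in HoipA-KO. All 3 HoipA-KO libraries were lower, with a difference of -0.64 (group means -3.75 ± 0.24 and -3.12 ± 0.35, SD, n = 3 each, exact permutation p = 0.1, two-sided). Without the added 0.1 CPM the groups overlapped, since the linear ratio of WT HFD replicate 2, 0.0604, lay below that of HoipA-KO HFD replicate 2, 0.0674.

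Cd8a relative to Cd4 had log2 ratios of -2.11, -0.771 and -1.69 in WT CD and -2.76, -2.11 and -1.74 in HoipA-KO CD, and of -1.11, -1.38 and 0.292 in WT HFD and -1.89, -2.23 and -0.977 in HoipA-KO HFD. The groups overlapped on both diets, with differences of -0.76 on CD (exact permutation p = 0.6, n = 3 and 2; -1.43 to -0.092 as libraries were left out) and -0.97 on HFD (exact permutation p = 0.3, n = 3 and 3). Il1rl1 relative to Foxp3 had log2 ratios of 2.55, 4.17 and 2.67 in WT CD and 6.06, 7.29 and 4.45 in HoipA-KO CD. All HoipA-KO CD libraries were above all WT CD libraries, by 2.58 over 11 libraries (exact permutation p = 0.2, n = 3 and 2, the smallest possible). Without the added 0.1 CPM these groups overlapped too, since the linear ratio of WT CD replicate 2, 37.5, was above that of HoipA-KO CD replicate 3, 24.6. On HFD the difference was 0.94 with overlap between the groups (exact permutation p = 0.5, n = 3 and 3), and 0.0117 to 1.61 as libraries were left out in turn.

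**Figure D4:**
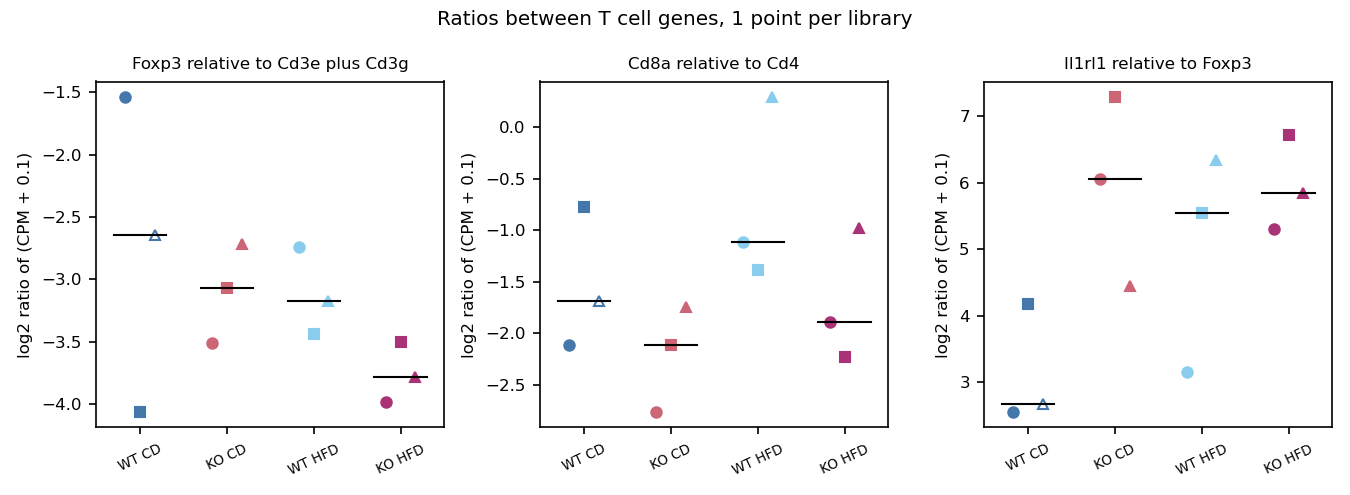
Log2 ratio of (CPM + 0.1) between T cell genes in each library, by group (KO is HoipA-KO); circles, squares and triangles are replicates 1, 2 and 3, the open triangle is WT CD replicate 3 and lines are medians. Il1rl1 relative to Foxp3 lies between 2.55 and 4.17 in WT CD and between 4.45 and 7.29 in HoipA-KO CD, a separation that is lost without the added 0.1 CPM, and Foxp3 relative to Cd3e plus Cd3g has its lowest group median in HoipA-KO HFD and its lowest single value in WT CD replicate 2.

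Levels can be compared between genes only per length of transcript. Per kilobase of exons, the median over all 12 libraries was 2.51 CPM per kb for Il1rl1, and 0.743, 0.689 and 0.659 CPM per kb for Cd4, Il2ra and Cd3g. Cd3e had 0.38, Cd8a 0.372, Pdcd1 0.354 and Gata3 0.294 CPM per kb. Ctla4 and Foxp3 were lowest, at 0.133 and 0.073 CPM per kb. Il1rl1 thus stood well above Foxp3, and in HoipA-KO CD its median was 4.67 against 0.0963 CPM per kb for Foxp3, while in WT CD it was 0.472 against 0.0811 CPM per kb. Cd4, Il2ra and Cd3g changed places between groups, since Il2ra was the highest of these 3 in WT HFD (1.1 CPM per kb) and Cd4 the highest in HoipA-KO HFD (2.19 CPM per kb).

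Ligands and receptor partners of these genes were counted as a list of 15, of which 14 were tested (Il2 was too low, with 0 to 0.1 CPM). On CD 4 were called higher in HoipA-KO and none lower, against 18.9% of all tested genes called higher. On HFD 1 was called higher, against 4.20%. The median log2 fold changes were 1.07 on CD, against -0.06 over all tested genes, and 0.60 on HFD, against 0.06. Over 12 libraries the counts were 4 and 0. In WT, 5 were higher on HFD, against 9.35% of all tested genes called higher. The 4 genes called on CD were Cd28, the costimulatory receptor of T cells, its ligand Cd80, Il1rap, the coreceptor of ST2, and Il2rg, the common chain of the interleukin-2 and interleukin-7 receptors.

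Cd80, also a ligand of CTLA-4, had 1.66, 1.09 and 1.0 CPM in WT CD and 6.75, 8.64 and 6.76 CPM in HoipA-KO CD, a log2 fold change of 2.48 ± 0.34 (SE, adjusted p = 0.00083, edgeR). Cd28 had 0.731, 1.04 and 1.04 CPM against 4.99, 4.13 and 2.35 CPM, a log2 fold change of 2.15 ± 0.41 (SE, adjusted p = 0.00374, edgeR). For both genes no HoipA-KO CD library reached down to the WT CD libraries, and HoipA-KO CD replicate 2, low in Cd3e, was the highest of its group in Cd80. Il1rap had 3.7, 3.04 and 4.08 CPM in WT CD and 11.2, 12.7 and 7.27 CPM in HoipA-KO CD, a log2 fold change of 1.68 ± 0.33 (SE, adjusted p = 0.00437, edgeR).

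Il33, the ligand of ST2, had 8.19, 11.7 and 6.62 CPM in WT CD and 22.6, 10.1 and 18.8 CPM in HoipA-KO CD, and the groups overlapped. Its log2 fold change was 0.82 ± 0.38 on CD (SE, adjusted p = 0.115, edgeR) and 0.95 ± 0.34 on HFD (SE, adjusted p = 0.0901, edgeR). Il2rg was called higher on CD by 1.76 ± 0.18 (SE, adjusted p = 0.000452, edgeR) and on HFD by 0.56 ± 0.15 on the log2 scale (SE, adjusted p = 0.0399, edgeR). The PD-1 ligand Cd274 had log2 fold changes of 0.29 ± 0.26 on CD (SE, adjusted p = 0.409, edgeR) and -0.63 ± 0.23 on HFD (SE, adjusted p = 0.1, edgeR). Neither passed the threshold, and neither did those of Pdcd1lg2, at 0.0666 to 0.427 CPM. Of the costimulatory pair Icos and Icosl and the T cell receptor chains Cd3d and Cd247, none was called on either diet. Their log2 fold changes on CD were 0.99 ± 0.51 for Icos (SE, adjusted p = 0.148, edgeR), 0.43 ± 0.33 for Icosl (SE, adjusted p = 0.334, edgeR), 1.60 ± 0.64 for Cd3d (SE, adjusted p = 0.075, edgeR) and -1.20 ± 0.51 for Cd247 (SE, adjusted p = 0.088, edgeR). The CD28 ligand Cd86 and the receptor chain Il2rb had 0.59 ± 0.25 (SE, adjusted p = 0.0903, edgeR) and 1.14 ± 0.44 on CD (SE, adjusted p = 0.0651, edgeR).

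**Figure D5:**
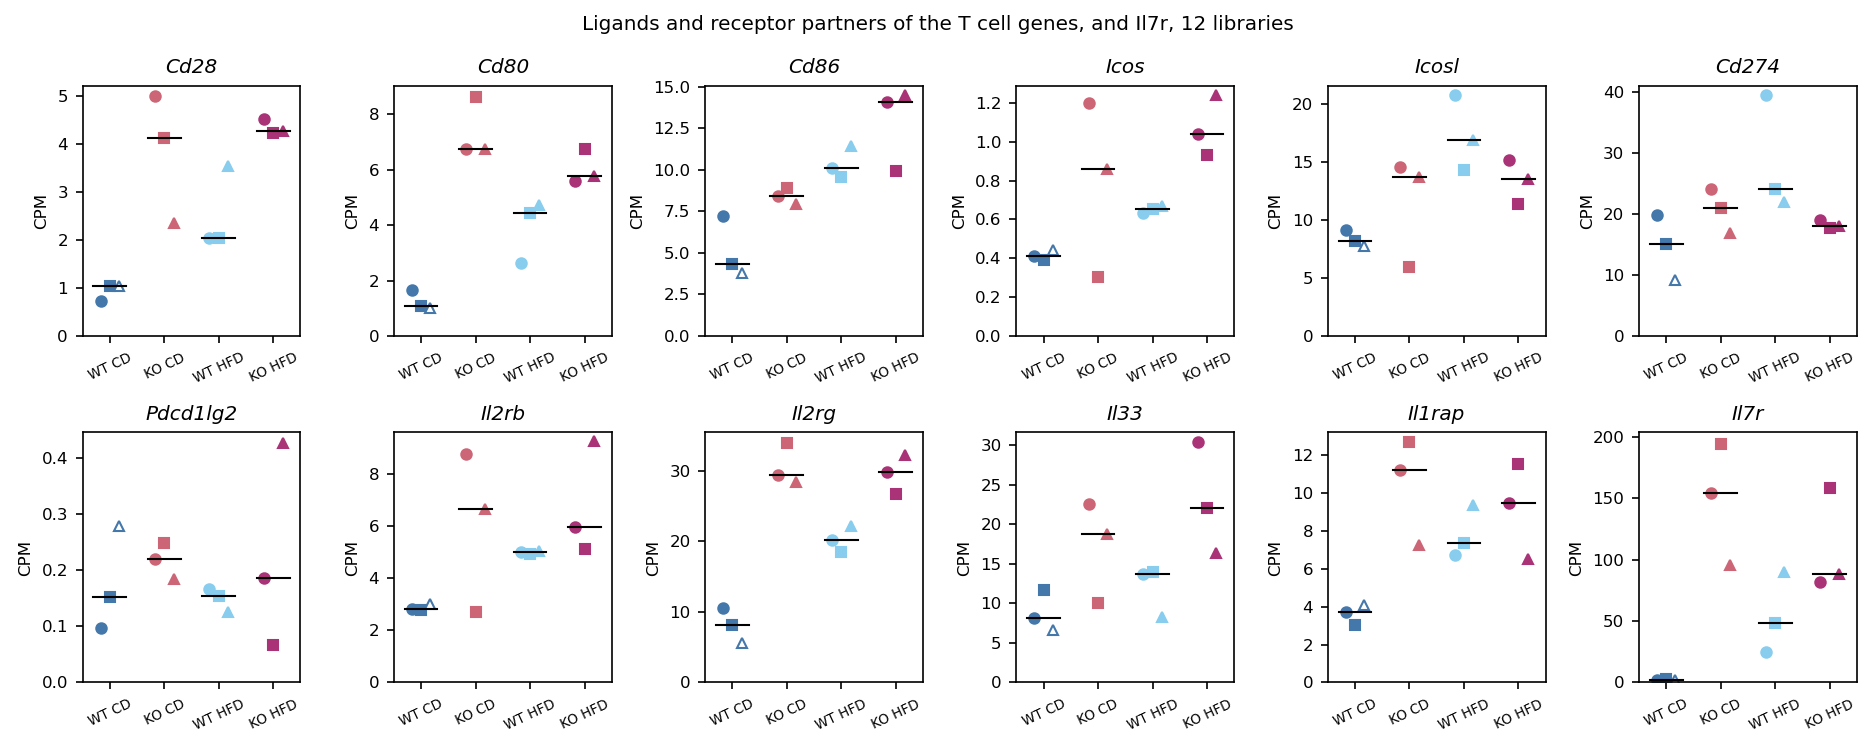
CPM (TMM over 12 libraries) of 11 ligands and receptor partners and of Il7r in each library, by group (KO is HoipA-KO); circles, squares and triangles are replicates 1, 2 and 3, the open triangle is WT CD replicate 3 and lines are medians. Cd28, Cd80, Il1rap, Il2rg and Il7r are lowest in the WT CD libraries, and Il7r is at 1.63 to 2.56 CPM there.

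In the wider list of 20 T cell receptor complex and signaling genes, 3 were called higher in HoipA-KO on CD (Lat, Cd28, Il7r), against 18.9% of all tested genes called higher. On CD 1 was called lower (Skap1), against 18.8% of all tested genes called lower. On HFD 1 was called higher (Lat), against 4.20%. Lat had 1.44, 1.26 and 1.48 CPM in WT CD and 8.74, 7.86 and 8.43 CPM in HoipA-KO CD, and was thus not low in replicate 2 as Cd3e and Cd3g were. The cells that Lat came from were not tested. Over 12 libraries 3 were higher and 0 lower on CD. The median log2 fold changes were 0.69 on CD and 0.55 on HFD, where 16 of the 20 were positive. Trac, a T cell receptor chain, went the other way on HFD. It had 5.45, 5.0 and 5.67 CPM in WT HFD and 3.12, 1.78 and 3.34 CPM in HoipA-KO HFD. In WT, 4 of the 20 were called higher and 1 lower on HFD (4 and 0 over 12 libraries). With 11 libraries, 9.35% of all tested genes were called higher and 14.8% in either direction. Il7r, the interleukin-7 receptor chain of resting T cells that is also made by other cells, had 2.17, 2.56 and 1.63 CPM in WT CD, 154, 194 and 95.7 CPM in HoipA-KO CD, 25.2, 48.2 and 90.0 CPM in WT HFD and 82.2, 158 and 88.7 CPM in HoipA-KO HFD. Its highest value was in HoipA-KO CD replicate 2, where Cd3e and Cd3g were lowest. The 19 other genes summed to 26.6 to 55.0 CPM in WT CD, 25.7 to 56.8 in HoipA-KO CD, 32.2 to 54.7 in WT HFD and 40.7 to 56.6 in HoipA-KO HFD, and these ranges overlapped between all groups.

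Of 16 regulatory T cell genes 14 were tested, and on CD 2 were called higher (Areg, Il10) and 1 lower (Ikzf2), with a median log2 fold change of 0.50. The higher calls are below the 18.9% of all tested genes. Ikzf2 was not called over 12 libraries (adjusted p = 0.0506, edgeR). Il10, an anti-inflammatory cytokine that macrophages also make, had a log2 fold change of 2.93 ± 0.47 on CD (SE, adjusted p = 0.00148, edgeR). It was the 1 gene of the list called on HFD, at 1.47 ± 0.37 (SE, adjusted p = 0.0358, edgeR), against 4.20% of all tested genes called higher. Over 12 libraries 2 were higher on CD and 0 on HFD. Ikzf2 was highest in WT CD replicate 2, at 10.9 CPM, and second in HoipA-KO HFD replicate 1, at 5.05 CPM. Gata3 had its highest values in the same 2 libraries in the reverse order, at 23.0 and 32.7 CPM. Of 13 tested cytotoxic T and NK cell genes, 3 were called higher on CD (Gzmb, Eomes, Ccl5), against 18.9% of all tested genes, and 0 on HFD. Over 12 libraries 2 were higher on CD, and the log2 fold change of Eomes was 0.01 (adjusted p = 0.989, edgeR). Cd8b1, the partner chain of Cd8a, had log2 fold changes of 1.45 on CD (adjusted p = 0.137, edgeR; -0.09 over 12 libraries) and 0.72 on HFD (adjusted p = 0.43, edgeR). Of 7 tested type 2 lymphocyte genes, Il1rl1 and Arg1 were called higher and Il17rb lower on CD, against 18.9% and 18.8% of all tested genes. On HFD Arg1 was called higher, against 4.20%. Over 12 libraries 3 were higher and 1 lower on CD. Arg1 is also a macrophage gene, and Il5, Il13 and Ptgdr2 were too low to be tested.

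Genes whose log2(CPM + 1) was most like that of a given gene over 11 libraries were looked for among 14357 genes, as a description in which the points share libraries, group and depth. For Cd3e they were Zap70 (Pearson's r = 0.944), Mir17hg, Trbc1, Cd3g and Dusp2 (r = 0.905), of which Zap70, Trbc1 and Cd3g belong to T cell receptor signaling. For Foxp3 they were Nfkbia (r = 0.912), Gadd45g, Svbp, Habp4 and Cebpd (r = 0.867), none of them of the regulatory T cell list. For Il1rl1 they were Dhx38 (r = 0.984), Smap2, Frmd4b, Stard8 and Galc (r = 0.98), and neither Foxp3 nor a T cell receptor gene was among the 5.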

How the data were processed

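Per the labels and the study's methods, poly(A) RNA of 12 GWAT pools was prepared with a stranded kit and sequenced. The submitters' processing notes name Trim Galore 0.6.7, STAR 2.7.10a, Salmon 1.5.2, MultiQC 1.11 and DESeq2 1.38.1, with build GRCm38. The methods name a human build, but every gene identifier in the table is a mouse one. The authors deposited estimated counts per gene from Salmon, which are not whole numbers, beside columns of their own comparisons, which were not used. The setting of strand in counting is not given in the sources used here. Loci were taken from a GRCm38 annotation by gene identifier, and promoter windows from RefSeq.

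Estimated counts were rounded to whole numbers. edgeR 4.0.16 (R 4.3.3, limma 3.58.1) was used with filterByExpr, TMM and 1 quasi-likelihood fit of the 4 groups, with Benjamini-Hochberg adjustment over all tested genes at 0.05, 95% intervals and a prior count of 0.125. WT CD replicate 3 was left out, for a reason not given in the sources used here. The code was tested on simulated data. Ratios were compared by exact permutation tests (SciPy 1.17.1), and figures drawn with matplotlib 3.10.9. Alternatives were all 12 libraries, 2 other normalizations, 2 other filters, protein-coding genes, a replicate block, the 2 groups alone, DESeq2 1.42.0, each library left out and a threshold of 0.01. Fits without the 2 epididymal-rich libraries were added after seeing the data.

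The 10 genes, the gene lists and the tests were chosen with earlier results of these data known. Named beside the 10 genes were their ligands and partners, the 3 most abundant genes of each list and the 5 genes most alike to Cd3e, Foxp3 and Il1rl1. The testis list, Trac, Skap1, Areg, Il10, Gzmb, Eomes and Il17rb were named after their values were seen. Each library pools 3 mice, nothing in the labels shows that pools were extracted or sequenced separately, and p-values measure the spread between these pools only.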

Additional observations from a re-analysis of the deposited data

Results flagged for a closer look

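For 3 genes, 1 of 20 T cell receptor complex and signaling genes and 2 of 14 tested ligands and partners, against 3.91% of all tested genes, the difference between HoipA-KO and WT was not the same on the 2 diets by the interaction term of edgeR's quasi-likelihood fit with Benjamini-Hochberg adjustment. Il7r, the interleukin-7 receptor chain, differed by -4.985 ± 0.751 on the log2 scale (SE, HFD difference minus CD difference, adjusted p = 0.0256, edgeR), and by -5.116 over all 12 libraries (adjusted p = 0.0131, edgeR). Cd80, a ligand of CD28 and CTLA-4, differed by -1.835 ± 0.424 (SE, adjusted p = 0.0468, edgeR; -1.941 and 0.0465 over all 12). Il2rg, the common chain, differed by -1.203 ± 0.224 (SE, adjusted p = 0.0281, edgeR; -1.382 and 0.0478 over all 12). In each, the HoipA-KO libraries exceeded WT by more on CD than on HFD, and this direction held in each fit made. The calls did not hold in each: of the 11 fits that leave out 1 library, Il7r was called in 4 (adjusted p from 0.00449 to 0.0909, edgeR), Cd80 in 2 (0.0169 to 0.128) and Il2rg in 3 (0.00662 to 0.092). The fits without WT CD replicate 1 or 2 are among these 11 and hold 1 WT CD library each. Each of the 3 calls was lost without WT HFD replicate 2, without any 1 of the HoipA-KO CD libraries, and without HoipA-KO HFD replicate 1 or 3. Without both epididymal-rich libraries the interaction was -4.89 for Il7r, -1.46 for Cd80 and -0.978 for Il2rg in 9 libraries, with WT CD replicate 1 alone. In 10 of the 12 libraries the adjusted p was 0.103 for Il7r, 0.173 for Cd80 and 0.172 for Il2rg (edgeR). With the replicate block Il7r alone was called (adjusted p = 0.0454, edgeR), and without a filter on low counts Cd80 was not (0.0655). By the same test 5 of 9 macrophage genes and 1 of 8 dendritic cell genes were called lower. Of the 10 T cell and regulatory T cell genes, none passed this test with 11 libraries.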

How the results depend on the processing

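The threshold calls of the 10 genes were few and depended on the libraries, and the cause was not tested. On CD 2 genes were called, and 2 in the 10 of the 12 libraries that were not epididymal-rich. As each library outside WT CD was left out in turn, 2 to 4 were called (4 without HoipA-KO CD replicate 2). Il1rl1 was called in each of these fits. On HFD 1 gene was called. It was 0 with all 12 libraries, 0 in the 10 of the 12 that were not epididymal-rich, 0 at an adjusted p of 0.01 and 0 to 1 as libraries were left out. Between the diets in WT it was 0, against 1 with all 12 libraries, library size alone, at least 10 counts in every library (7 of the 10 genes tested), DESeq2's Wald test and 10 of the 12 libraries, in each case Il1rl1, and 0 to 2 as libraries were left out. The interaction gave 0, also as each library outside WT CD was left out in turn.

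Of 15 pairs of libraries with the same replicate number, 5 had correlated deviations above 0.1 (r from -0.477 to 0.372). Pairs with different numbers ranged from -0.421 to 0.477. Deviations were taken from group means, so the 2 WT CD libraries mirror each other. Whether replicate numbers pair the libraries can therefore not be told from these values. With the replicate block, 2 genes were called on HFD (Cd4, and Il2ra lower at an adjusted p of 0.0383, edgeR) and 1 between the diets in WT (Il2ra, adjusted p = 0.0403, edgeR), while Foxp3 and Ctla4 on HFD were 0.172 and 0.459.

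Log2 fold changes near 0 changed sign, and so did the large one of Gata3 on HFD. On CD, Foxp3 was -0.0123 among protein-coding genes alone. The 9 libraries that were not epididymal-rich hold 1 WT CD library. In these 9 and in 10 of the 12, Foxp3 was -0.826 and -0.376. Il2ra was -0.299 and -0.00902, and Ctla4 -0.194 and -0.00168. On HFD, Ctla4 was 0.00527 by library size alone and 0.215 and 0.162 in those 9 and 10 libraries. Gata3 on HFD was 3.48 in the main fit, with 32.7 CPM in HoipA-KO HFD replicate 1, and -0.0256 and -0.0576 in those 9 and 10 libraries. Il1rl1 between the diets in HoipA-KO was 0.0134 by library size alone, and 0.254 and 0.242 in those libraries. As single libraries were left out, values ranged on CD from -0.79 to 2.34 for Foxp3, -0.259 to 0.733 for Il2ra and -0.158 to 2.22 for Ctla4, and on HFD from -0.475 to 0.945 for Foxp3, -0.579 to 1.59 for Ctla4 and -0.0281 to 4.04 for Gata3. Between the diets in HoipA-KO, they ranged from -0.439 to 0.258 for Il1rl1 and -0.089 to 0.601 for Cd4. Foxp3 relative to Cd3e plus Cd3g on CD ranged from -1.56 to 0.963, positive without WT CD replicate 1. Cd8a relative to Cd4 ranged from -1.43 to -0.092 on CD and -1.33 to -0.455 on HFD, and Il1rl1 relative to Foxp3 from 1.77 to 3.39 on CD and 0.0117 to 1.61 on HFD. A further 22 values of the 10 genes between diets and in the interaction gave 467 pairs of a value and an alternative fit. In 36 of these pairs the sign changed, and in 1 the call.

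Over all genes, 6947 calls on CD became 4208 in a fit of the 2 groups and 3619 at 0.01. On HFD, 2179 became 503 with 12 libraries, 4410 with DESeq2, 3779 in 9 libraries, 338 in 10, 185 at 0.01 and 279 to 3797 as libraries were left out. In WT, 2731 became 1502 with the block, 0 in a fit of the 2 groups, 4551 with DESeq2 and 660 at 0.01. They ranged from 1045 to 2805 as libraries outside WT CD were left out. The interaction gave 721 calls, 377 with the block, 2350 with DESeq2, 1 in 10 libraries and 2 at 0.01. It gave 1 to 999 as libraries outside WT CD were left out. With all 12 libraries the median log2 fold change over all genes on CD was -0.21, to which the values of that fit are relative. Foxp3 and Ctla4 had the lowest counts of the 10 genes, with as few as 4 and 3 in a library, and differed widely between libraries of a group.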
